A study of Mus musculus with 6 samples.

Results

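A set of 10 genes of heme and iron handling, lipocalin 2 among them, was followed in the mouse macrophage line RAW264.7 after treatment with SKI-II. They were chosen by symbol, and all 10 were found among the 49315 genes counted and passed the filter on low counts. The members were Lcn2, Hmox1, Blvra, Blvrb, Fth1, Ftl1, Ncoa4, Tfrc, Slc11a1 and Slc40a1. RAW264.7 is an established line of macrophage-like cells, labelled here as wild type, and SKI-II is a compound that inhibits sphingosine kinases. Cells received 4 μg/mL of SKI-II or an equal volume of DMSO, the vehicle, and RNA was sequenced at 24 h in 3 libraries per group, 6 in all. The comparison asked how the compound changed the transcripts of these cells, whose labels name no infection. The study's methods say in general terms that experiments were repeated independently, and name biological replicates for the qPCR assay whose treatment and RNA extraction were also used here. Neither they nor the labels tie the libraries of a group to separate cultures, so the p-values measure only the spread between these libraries, which may be technical.

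Macrophages take up dying red cells and break their heme down. Heme oxygenase 1, encoded by Hmox1, opens the heme ring and releases iron, carbon monoxide and biliverdin, and biliverdin reductases turn biliverdin into bilirubin. The iron is stored in ferritin, a shell built of heavy and light chains, or leaves the cell through ferroportin, the product of Slc40a1. Lipocalin 2 is a secreted protein that binds bacterial siderophores, the small molecules with which bacteria collect iron, so that infected tissue holds iron back from them.

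Totals per library lay between 12495957 and 20050677 counts, and the counts were scaled to a mean library of 16042438 with TMM factors to give normalized counts. A gene was called when edgeR's quasi-likelihood test gave it a p under 0.05 after adjustment over the 12274 genes tested. Of the listed macrophage markers, all 12 were detected. Their summed level was 9470 to 12700 CPM (counts scaled to the library total) in DMSO and 6120 to 8510 in SKI-II. The most abundant of them was Lyz2, whose mean went from 109818 normalized counts with DMSO to 45951 with SKI-II. Summed without Lyz2, the group means of the markers were higher with SKI-II, so the fall of the sum rests on Lyz2. At the adjusted p threshold of 0.05, 3 of the 12 were higher (25.0%, against 18.4% of all tested genes) and 4 lower (33.3%, against 19.7%). Among the higher ones were Fcgr1 and Cd14, with log2 fold changes of 2.17 and 1.41, and among the lower ones Msr1 and Lyz2, at -2.11 and -1.26. Of 14 neutrophil markers, 12 had at most 10 counts over the 6 libraries, and Ly6g, Ngp, Ltf, Ctsg and Retnlg had none. Their summed level was 10.1 to 12.3 CPM in DMSO and 7.67 to 12.8 in SKI-II. Of 11 erythroid markers, 8 had at most 10 counts, and their sum was at most 1.97 CPM in any library. In bulk RNA, a change in the share of cells that express a gene and a change in the level per cell cannot be told apart, and the part of the marker changes in the results below was not tested.

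With SKI-II, 6 of the 10 members were higher and 1 was lower, against 18.4% of all tested genes that were higher and 19.7% that were lower. The higher members were Lcn2, Slc40a1, Hmox1, Blvrb, Slc11a1 and Fth1, the lower one was Blvra, and Ftl1, Tfrc and Ncoa4 were not called. Beyond a log2 fold change of 1 in size, 5 members were higher and 1 lower, against 8.28% and 7.44% of all tested genes. All 3 SKI-II libraries lay above all 3 DMSO libraries in 6 members, which 24.8% of the tested genes did, and below them in 2 members, which 25.5% did. The median log2 fold change of the 10 members was 0.96, and that of all tested genes was 0.00377. The members were chosen with earlier results of these data known, so these shares only describe them.

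**Figure D1:**
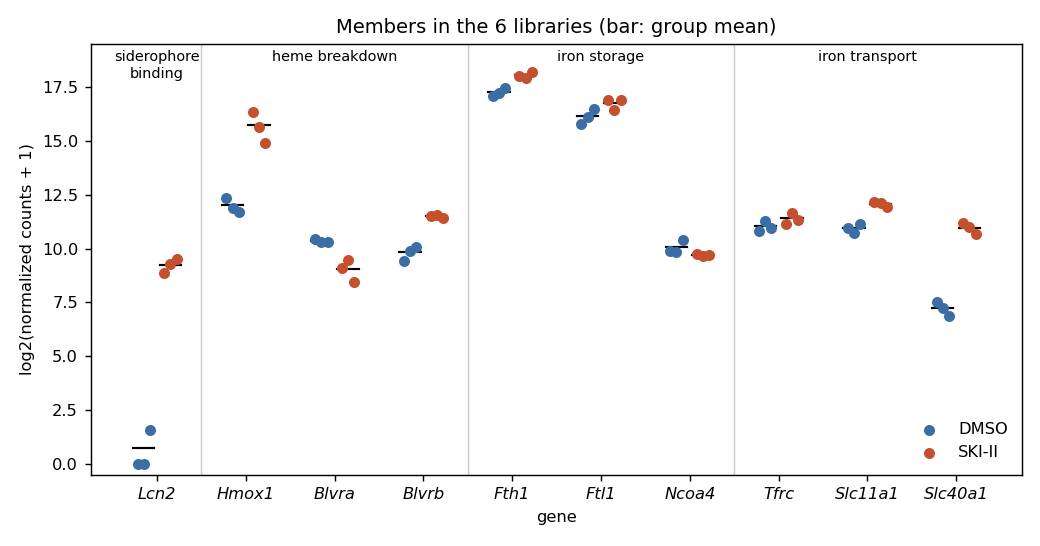
Normalized counts of the 10 members in the 6 libraries, as log2(normalized counts + 1), grouped by role. Points are libraries of DMSO (blue) and SKI-II (red) and black bars are the group means (n = 3). The groups are far apart for Lcn2, Hmox1 and Slc40a1, while those of Ftl1 and Tfrc overlap.

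Lcn2 went from almost no reads to a clear signal in every treated library. Its raw counts were 0, 0 and 2 with DMSO against 417, 648 and 886 with SKI-II. In normalized counts the SKI-II libraries held 467, 618 and 722, a mean of 602 ± 128 (SD, n = 3). No DMSO library came near any SKI-II library. Summed over the libraries and scaled for their sizes, the SKI-II counts were 871 times the DMSO counts, with an exact 95% interval of 241 to 7200, which covers counting error only. Since the DMSO level rests on 2 reads of a single library, the ratio became 554 without DMSO replicate 1 and at least 374 without DMSO replicate 3, where a group count of 0 was set to its upper limit of 3 counts. The adjusted p was 5.58e-06 in edgeR's test. Neutrophils store lipocalin 2 in their granules, and the summed neutrophil markers given above overlapped between the groups. Per kilobase of transcript, the SKI-II level of Lcn2 was 658 ± 140 normalized counts (SD, n = 3), below those of Hmox1, Blvrb and Slc11a1.

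Lcn2 lies on the minus strand of chromosome 2, from 32384633 to 32388252 in GRCm38, with 6 exons in its principal transcript. Promoter windows from RefSeq (GRCm38.p6) ran from 250 bases before a start site to 50 after it, and a gene could have several. Lcn2 had 1 window, and the only stretch of it that matched a searched motif is shown because Lcn2 had the largest fold of the members. The match to the C/EBP motif TTGCNNAA is in capitals, and the RefSeq start site is at 32387739:
Lcn2, chr2:32387937-32387966, minus strand: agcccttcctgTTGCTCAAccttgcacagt
That start site lies 58 bases inside the principal GENCODE transcript and 513 bases inside the GENCODE transcript that reaches farthest upstream, which has the match in an exon. The motif, searched on both strands, was found in 10.8% of 32851 windows of all genes. The Lcn2 window held no match to the NF-kB motif, found in 8.46% of all windows, and none to the antioxidant response element core TGACNNNGC, found in 12.4%. Of 8 members with 13 windows in all, 1 to 3 each, Fth1 also held the C/EBP motif in a window, Ftl1 and Ncoa4 held the NF-kB motif, and Blvra and Ncoa4 held the antioxidant core. The shares are per window, so a member with several windows had more than 1 chance of a match. Hmox1 and Slc40a1 had no window and were not searched. A match is a description of the letters only, and its use in these cells was not measured.

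Of 4 listed genes that act with lipocalin 2, Bdh2 and Mmp9 had enough reads for a test. Bdh2, an enzyme proposed to make a mammalian siderophore, rose from 66.2 ± 5.27 to 211 ± 30.8 normalized counts (SD, n = 3), a log2 fold change of 1.67 with a standard error of 0.21 (adjusted p = 0.000275, edgeR). Mmp9, a secreted protease that lipocalin 2 can bind, lay between 59.3 and 164 normalized counts with DMSO and between 17.9 and 79.8 with SKI-II, and was not called (adjusted p = 0.156, edgeR). Its groups overlapped, and it was called in 2 of 14 alternatives, 1 of them without a filter on low counts (adjusted p = 0.0057, edgeR). The lipocalin 2 receptor genes Slc22a17 and Lrp2 had too few reads to be tested.

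The heme breakdown enzymes moved in different directions. Hmox1, on chromosome 8 from 75093621 to 75100589, held 5149, 3836 and 3372 normalized counts with DMSO against 83772, 51068 and 30688 with SKI-II. Every SKI-II library was far above every DMSO library, although the SKI-II libraries differed among themselves by 2.73 times. The fold was 13.4 with a 95% interval of 8.17 to 22, a log2 fold change of 3.74 with a standard error of 0.32 (adjusted p = 5.36e-05, edgeR). The share of all counts on Hmox1 was 0.0198% to 0.0335% with DMSO and 0.188% to 0.527% with SKI-II. By rank of counts it was between the 499th and the 981st gene in DMSO and between the 9th and the 26th in SKI-II. Hmox2, the constitutive heme oxygenase, held 1105 ± 75.4 normalized counts with DMSO against 1152 ± 44.6 with SKI-II (SD, n = 3), a log2 fold change of 0.06 with a 95% interval of -0.20 to 0.32.

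The biliverdin reductase genes crossed over. Blvrb, which encodes biliverdin reductase B, also a flavin reductase, held 697, 945 and 1066 normalized counts with DMSO against 2880, 3038 and 2782 with SKI-II. The SKI-II libraries lay close together and above all DMSO libraries, with a fold of 3.21 and a 95% interval of 2.53 to 4.08 (adjusted p = 5.24e-05, edgeR). Blvra, which encodes biliverdin reductase A, the enzyme of the main bilirubin isomer in adults, held 1375, 1267 and 1257 normalized counts with DMSO against 551, 709 and 348 with SKI-II. It fell in every SKI-II library, to 0.412 of the DMSO level with a 95% interval of 0.293 to 0.576 (adjusted p = 0.00159, edgeR). The ratio of Blvrb to Blvra per transcript length, formed after these values were seen, was 0.572, 0.842 and 0.958 in DMSO and 5.90, 4.84 and 9.02 in SKI-II. Blvra was thus the more abundant in each DMSO library and Blvrb in each SKI-II library. Blvra lies on chromosome 2 from 127070665 to 127097084 and Blvrb on chromosome 7 from 27447978 to 27466144.

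**Figure D2:**
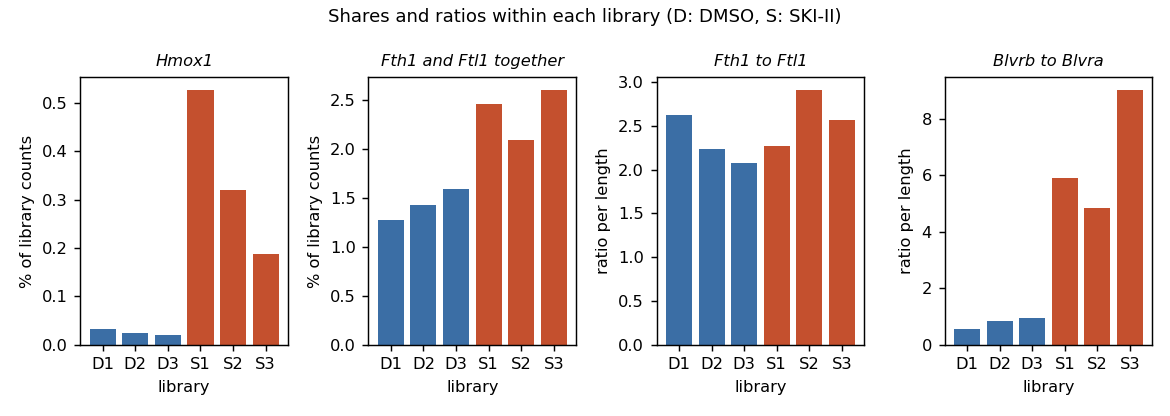
Bars give, for each DMSO (D1 to D3) and SKI-II (S1 to S3) library, the percent of counts on Hmox1 and on Fth1 with Ftl1, and the ratios per transcript length of Fth1 to Ftl1 and of Blvrb to Blvra. The Hmox1 share in SKI-II runs from 0.188% to 0.527%, the Fth1 to Ftl1 ratios of the groups overlap, and the Blvrb to Blvra ratio is below 1 in DMSO and at least 4.84 in SKI-II.

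Ferritin transcripts were among the most abundant of the cells. Fth1 lies on chromosome 19 from 9980598 to 9985098, Ftl1 on chromosome 7 from 45457944 to 45459884 and Ncoa4 on chromosome 14 from 32159865 to 32179855. Fth1, the heavy chain that oxidizes iron for storage, was the 3rd gene by counts in each DMSO library and the 1st or 2nd in each SKI-II library. It held 140337, 153818 and 180083 normalized counts with DMSO against 267687, 245823 and 302208 with SKI-II. The groups did not overlap, and the fold was 1.72 with a 95% interval of 1.26 to 2.35 (adjusted p = 0.0127, edgeR). The call was lost without DMSO replicate 2, at an adjusted p of 0.0761 in edgeR's test. Ftl1, the light chain, held 55790, 71434 and 90784 normalized counts with DMSO against 122861, 88079 and 122389 with SKI-II. The lowest SKI-II library lay just below the highest DMSO library, and the fold of 1.53, with a 95% interval of 1.07 to 2.17, was not called after adjustment (adjusted p = 0.0591, edgeR).

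Together, Fth1 and Ftl1 took 1.28% to 1.59% of all counts with DMSO and 2.09% to 2.60% with SKI-II. Per transcript length, the ratio of Fth1 to Ftl1 was 2.62, 2.24 and 2.07 in DMSO and 2.27, 2.91 and 2.57 in SKI-II. The log2 ratio differed by 0.16 between the groups (exact two-sided permutation test, p = 0.4), less than the spread between libraries, and 0.1 is the smallest p that 3 against 3 libraries allow. Both genes have processed copies elsewhere in the genome with which reads could have been shared. Annotated light chain copies held 0.631% to 0.766% as many counts as Ftl1, nearly all on Ftl1-ps1, and heavy chain copies at most 0.00293% as many as Fth1. These counts cannot show how many reads that fit a gene and a copy equally well were left uncounted. An antisense gene that shares 355 exon bases with Ftl1, Gm10252, held 1516 counts over the 6 libraries, and the strand setting of the counting is not given in the sources used here. Ncoa4, the receptor that carries ferritin to lysosomes for iron release, held 944, 931 and 1339 normalized counts with DMSO against 850, 810 and 846 with SKI-II. The SKI-II libraries all lay below the DMSO libraries, but the log2 fold change of -0.36, with a 95% interval of -0.71 to -0.01, was not called (adjusted p = 0.0982, edgeR).

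Part of the control of these genes acts on the finished mRNA. Iron regulatory proteins bind hairpins called iron-responsive elements when iron is scarce. They hold back translation where the element stands before the coding sequence and protect the mRNA from decay where elements stand after it. Read counts measure the mRNA level and not its translation. In GENCODE M21 transcripts, elements were searched as a bulged C followed by 5 bases that pair, G-T pairs included, with the 5 bases after a loop CAGTGN with no G at its end. Of the members, 4 held 7 matches, with Fth1, Ftl1 and Slc40a1 each having 1 before the coding sequence and Tfrc having 4 after it. Among 21901 protein-coding genes, 0.105% had a match before the coding sequence and 0.457% after it. The bases are shown because they set apart the mRNAs open to this control, with the bulged C and the loop in capitals:
Fth1, chr19:9982733-9982759, plus strand: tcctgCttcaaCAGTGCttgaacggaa
Ftl1, chr7:45459780-45459806, minus strand: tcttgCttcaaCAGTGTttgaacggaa
Slc40a1, chr1:45925466-45925492, minus strand: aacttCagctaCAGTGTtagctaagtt
Tfrc, chr16:32631220-32631246, plus strand: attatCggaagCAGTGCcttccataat
Tfrc, chr16:32631599-32631625, plus strand: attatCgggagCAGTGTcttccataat
Tfrc, chr16:32631664-32631690, plus strand: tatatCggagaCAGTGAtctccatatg
Tfrc, chr16:32631711-32631737, plus strand: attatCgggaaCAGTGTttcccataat
The coordinates are those of GRCm38. The other 6 members had no match in a protein-coding transcript.

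**Figure D3:**
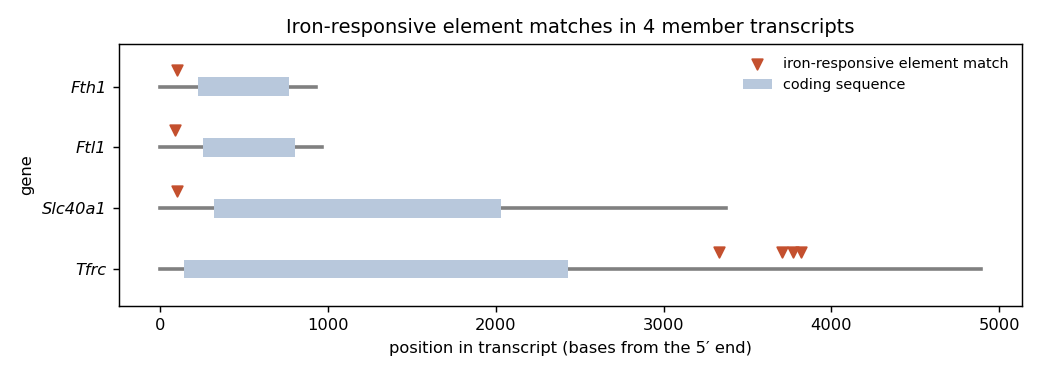
Principal transcripts of Fth1, Ftl1, Slc40a1 and Tfrc drawn to scale in bases from the 5′ end, with the coding sequence as a box and each iron-responsive element match as a triangle. Fth1, Ftl1 and Slc40a1 each have 1 match ahead of the box, and Tfrc has 4 matches behind it.

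The genes that carry such elements did not move by the same amount. Slc40a1, which encodes the iron exporter ferroportin (chromosome 1, 45908068 to 45926523), held 182, 149 and 116 normalized counts with DMSO against 2356, 2052 and 1626 with SKI-II. All SKI-II libraries were well above all DMSO libraries, with a fold of 13.5 and a 95% interval of 9.99 to 18.1, a log2 fold change of 3.75 with a standard error of 0.19 (adjusted p = 6.90e-06, edgeR). Its fold was close to that of Hmox1, and in both groups the library with the most Hmox1 was also the one with the most Slc40a1. That SKI-II library, replicate 1, was also the highest SKI-II library for Ftl1, Ncoa4 and Slc11a1, and the agreement was not tested. Tfrc, which encodes the transferrin receptor that brings iron into the cell, held 1825, 2479 and 1966 normalized counts with DMSO against 2295, 3235 and 2594 with SKI-II. The groups overlapped, and the log2 fold change of 0.37, with a 95% interval of 0.01 to 0.74, was not called (adjusted p = 0.0970, edgeR). Aco1 and Ireb2 encode the iron regulatory proteins. Aco1 had a log2 fold change of -0.03, with a 95% interval of -0.27 to 0.21. Ireb2 was lower by a log2 fold change of -0.44 (adjusted p = 0.025, edgeR), a call lost on dropping replicate 1 or 2 of DMSO, or replicate 2 or 3 of SKI-II (adjusted p up to 0.0759).

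Slc11a1, whose product NRAMP1 moves iron and manganese out of the phagosome, held 1966, 1673 and 2253 normalized counts with DMSO against 4657, 4440 and 3919 with SKI-II. The groups were apart by a fold of 2.21 with a 95% interval of 1.78 to 2.73 (adjusted p = 0.000237, edgeR). Read counts do not show whether these cells make a working NRAMP1 protein, and its transport was not measured. Tfrc lies on chromosome 16 from 32608920 to 32632794, and Slc11a1 on chromosome 1 from 74375195 to 74386062.

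**Figure D4:**
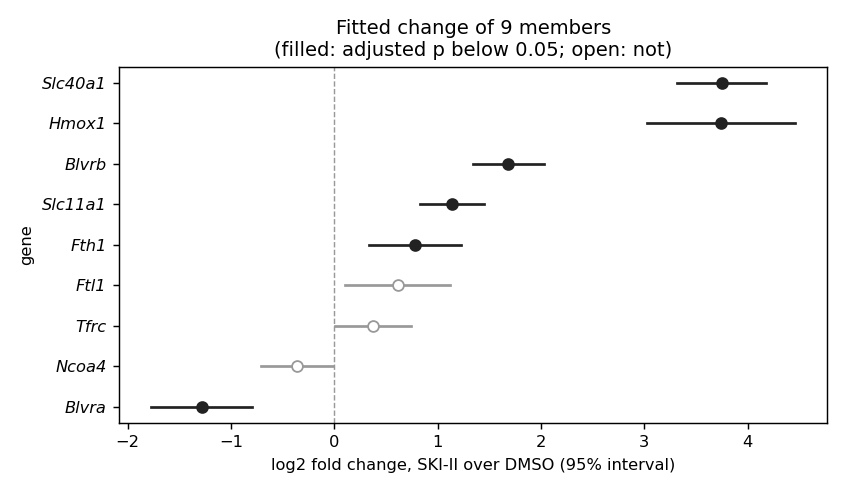
Fitted log2 fold change of SKI-II over DMSO with its 95% interval for 9 members. Filled points passed edgeR's test at 0.05 after adjustment and open points did not. Lcn2 is left out because its DMSO level rests on 2 reads. Slc40a1 and Hmox1 lie near 3.7, and Blvra alone of the called genes lies below 0.

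Compared per kilobase of transcript, the order of the members differed between the groups. In DMSO the mean levels ran from Fth1 (170160 normalized counts per kilobase) through Ftl1 (75072), Hmox1 (2625), Blvra (1120), Blvrb (878), Slc11a1 (848), Tfrc (427), Ncoa4 (321) and Slc40a1 (44.2) to Lcn2. In SKI-II they ran from Fth1 (292687) through Ftl1 (114783), Hmox1 (35166), Blvrb (2821), Slc11a1 (1874), Lcn2 (658), Slc40a1 (597), Tfrc (554) and Blvra (462) to Ncoa4 (250). Neighbours whose libraries overlapped were Blvrb with Slc11a1 and Tfrc with Ncoa4 in DMSO, and Lcn2 with Slc40a1, Slc40a1 with Tfrc and Tfrc with Blvra in SKI-II. Blvra went from the 4th place to the 9th, and Blvrb from the 5th to the 4th.

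Around the members, 7 lists of the wider pathway, also chosen with earlier results of these data known, held 98 genes, of which 76 were tested. Of these, 20 (26.3%) were higher and 7 (9.21%) lower, against 18.4% and 19.7% of all tested genes, with a median log2 fold change of 0.08. The same shares of all tested genes apply to each list below. Heme synthesis had 9 tested genes, with 1 higher (11.1%), 1 lower (11.1%) and a median of -0.10. Alas1, the rate-limiting enzyme of heme synthesis outside red cells, had a log2 fold change of 0.36 (adjusted p = 0.0427, edgeR), and its call was lost in 7 of 14 other settings (adjusted p up to 0.162), among them the fits without each library other than DMSO replicate 1. Abcb10, a mitochondrial transporter that aids heme synthesis, had one of -0.82 (adjusted p = 0.0319, edgeR), lost on dropping the same libraries as for Ireb2 (adjusted p up to 0.113).

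Heme uptake and export had 9 tested genes, with 3 higher (33.3%), 1 lower (11.1%) and a median of 0.35. Slc48a1, which carries heme from the phagolysosome to the cytosol, rose from 3801 ± 778 to 9737 ± 690 normalized counts (SD, n = 3), a log2 fold change of 1.36 (adjusted p = 0.000227, edgeR). Slc46a1, a folate transporter that also carries heme, rose from 50.1 ± 5.75 to 167 ± 54.5 normalized counts (SD, n = 3), a log2 fold change of 1.73 (adjusted p = 0.00123, edgeR). Lrp1, the receptor for heme bound to hemopexin, fell from 31264 ± 1433 to 12663 ± 2803 normalized counts (SD, n = 3), a log2 fold change of -1.30 (adjusted p = 0.000532, edgeR). Pgrmc1, a heme-binding membrane protein, was the other higher gene, at 0.35 (adjusted p = 0.0391, edgeR), lost in the same 7 settings as Alas1 (adjusted p up to 0.168). Cd163, the macrophage receptor for hemoglobin, had no counts in any library.

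Iron uptake and release had 9 tested genes, with 6 higher (66.7%, against 18.4% of all tested genes), 1 lower (11.1%, against 19.7%) and a median of 0.69. Cp, which encodes ceruloplasmin, the ferroxidase that acts with ferroportin, rose from 18.0 ± 12.8 to 144 ± 42.6 normalized counts (SD, n = 3), a log2 fold change of 3.04 with a standard error of 0.49 (adjusted p = 0.00112, edgeR). Its DMSO level rests on 48 counts over the 3 libraries. Slc39a14, a metal importer, rose by a log2 fold change of 1.53 (adjusted p = 0.000487, edgeR). Mcoln1, a lysosomal channel that lets iron out, rose by 0.78 (adjusted p = 0.00419, edgeR). Steap3, the endosomal ferrireductase that serves transferrin uptake, fell from 1269 ± 63.7 to 795 ± 47.7 normalized counts (SD, n = 3), a log2 fold change of -0.68 (adjusted p = 0.00167, edgeR).

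Of 11 tested genes of iron sensing, chaperones and ferritin turnover, 0 were higher and 3 (27.3%) lower in edgeR's test, with a median of -0.14. At an unadjusted p below 0.05, 0 of them were higher in edgeR's test, and DESeq2 and limma-voom called 0 each. The lower genes were Ireb2, Cisd1, an iron-sulfur protein of the outer mitochondrial membrane, at -0.97 (adjusted p = 0.00312), and Pcbp2, a chaperone that hands iron to ferritin and ferroportin, at -0.91 (adjusted p = 0.00171). Of 22 tested genes of iron-sulfur cluster assembly, 4 (18.2%) were higher and 1 (4.55%) lower, with a median of -0.05, so that the share of higher genes was near that of all tested genes. The 3 highest of the called genes were Ciapin1 at 0.92, Lyrm4 at 0.74 and Hscb at 0.53, and the lower one was Nfs1, the cysteine desulfurase, at -0.54. Hscb was no longer called on dropping any of the same libraries as for Ireb2 (adjusted p up to 0.156).

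**Figure D5:**
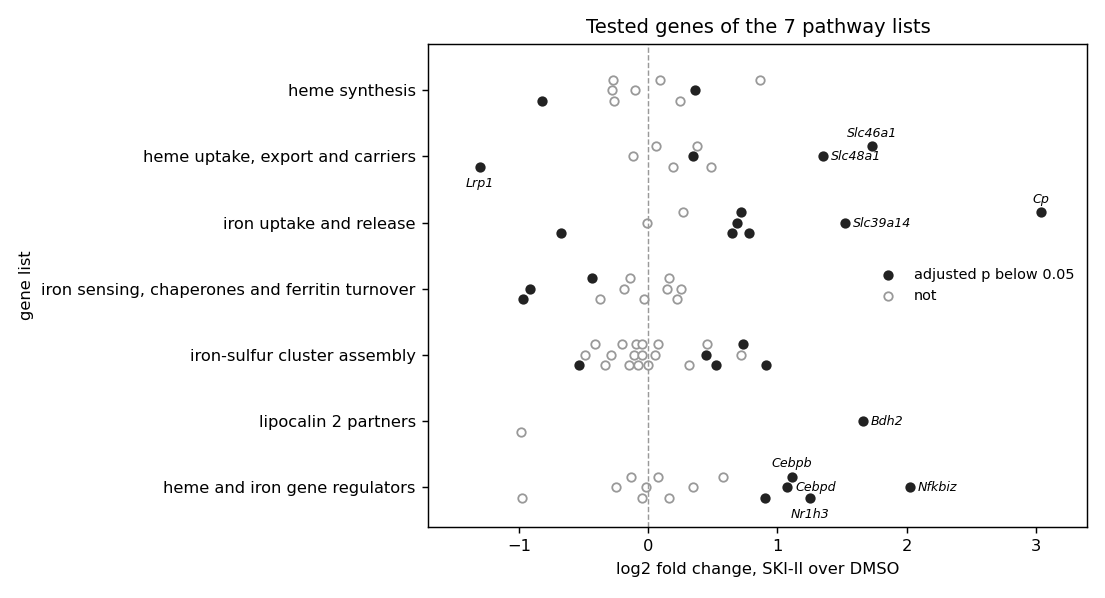
Log2 fold change of SKI-II over DMSO for each tested gene of the 7 pathway lists, with filled points for genes that passed edgeR's test at 0.05 after adjustment and open points otherwise, and symbols for the called genes beyond about 1 in size. Iron uptake and release has 6 called genes to the right of 0 and 1 to the left, and iron sensing has 3 called genes, all to the left.

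Among 14 tested regulators of heme and iron genes, 5 (35.7%) were higher, 0 lower in edgeR's test, and the median was 0.25. At an unadjusted p below 0.05, 1 of them, Epas1, was lower in edgeR's test, and DESeq2 called 0 and limma-voom 1, also Epas1. Nfkbiz, a nuclear coactivator known for Lcn2, rose from 146 ± 56.1 to 593 ± 123 normalized counts (SD, n = 3), a log2 fold change of 2.03 with a standard error of 0.28 (adjusted p = 0.000555, edgeR). The C/EBP factors Cebpb and Cebpd, also known to act at Lcn2, rose by 1.11 (adjusted p = 0.000246) and 1.08 (adjusted p = 0.00231) on the log2 scale. Nr1h3, the oxysterol receptor LXR alpha, rose by 1.25 (adjusted p = 0.00786), and Mafg, a small Maf partner of Nrf2 and Bach1, by 0.91 (adjusted p = 0.000842). For Nfe2l2, which encodes Nrf2, the log2 fold change was -0.01 with a 95% interval of -0.27 to 0.25. For Bach1, the heme-binding repressor of Hmox1, it was -0.25 with an interval of -0.58 to 0.08, and for Keap1, which marks Nrf2 for degradation, -0.04 with an interval of -0.35 to 0.26. Stat3, Mafk, Maff, Nr1h2, Hif1a and Epas1 were not called, at 0.08, 0.16, 0.58, 0.34, -0.14 and -0.97. Of these, Nr1h2 was called in 5 of 14 alternatives, Epas1 in 4 and Maff in 1, without DMSO replicate 3 (log2 fold change 0.90, adjusted p = 0.0257, edgeR).

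The genes whose log2 CPM followed the members most closely over the 6 libraries, by the root mean square difference of centred values, were Avil (0.457), Tarm1 (0.581) and Sspo (0.682) for Lcn2. Avil, which encodes the actin-binding protein advillin, had raw counts of 51, 67 and 93 with DMSO against 10342, 12606 and 13617 with SKI-II. Tarm1 had 0, 0 and 1 counts with DMSO and Sspo none, and Lcn2 itself had at most 2, so the DMSO part of these profiles lies at the floor set by the prior count of 2. For Hmox1 they were Rhob (0.144), Otog (0.246) and Mfsd4b3 (0.251). Rhob, which encodes a small GTPase, had raw counts of 135, 63 and 66 with DMSO against 1629, 1400 and 843 with SKI-II, while Otog and Mfsd4b3 had at most 5 counts in any DMSO library.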

How the data were processed

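Poly(A)-selected RNA of 3 DMSO and 3 SKI-II libraries was sequenced. Per the labels, the authors trimmed reads with Trimmomatic 0.36, mapped them with STAR 2.5.2b and counted them with featureCounts of Subread 1.5.2. The deposited file used here holds raw counts per Ensembl gene, without normalization. The genome build, annotation release and strand setting are unstated in the labels and methods. GENCODE M21 (GRCm38) named 48970 of 49315 identifiers.

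The members and gene lists were chosen with earlier results of these data known, and 1 gene was taken out of the lists afterwards because it is not reported here, a choice that did not depend on its values, and the counts and shares of the lists do not cover it. Counts were tested in edgeR 4.0.16 (R 4.3.3) by the quasi-likelihood F test with TMM scaling, the expression filter at its defaults (minimum count 10, minimum total 15), a prior count of 0.125 and Benjamini-Hochberg adjustment over 12274 genes, and the programs were tested on simulated data. Standard errors came from the negative binomial weights and the moderated dispersion, and 95% intervals from their t quantiles. Length refers to the principal transcript. Libraries of a group differed by more than sampling noise (chi-square per degree of freedom 15.4 to 58.1 over genes with at least 20 counts). Named genes were the members, up to 3 called genes per direction of each list, all tested regulators and lipocalin 2 partners, ferritin copies and the nearest profiles. Aco1, Hmox2, Cd163, Slc22a17 and Lrp2 were named besides. RefSeq promoter windows (GRCm38.p6) cover 8 of the 10 members. DESeq2 1.42.0, limma-voom (limma 3.58.1), other scalings and filters, each library left out, a replicate block and a prior count of 2 were the alternatives. Figures were drawn with matplotlib 3.10.9.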

Additional observations from a re-analysis of the deposited data

How the results depend on the processing

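Over the alternatives, the members called higher numbered 5 to 8 and those called lower 1, and no member changed direction. With each library left out, 5 to 7 members were higher and 1 lower. In the same fits, 1507 to 2227 of all 12530 to 12617 tested genes were higher and 1766 to 2387 lower. Lcn2 had no test where every library had to hold 10 counts or more. Ftl1 was called in 6 of 14 alternatives (adjusted p 0.00366 to 0.175), by DESeq2, limma-voom, library size alone, no filter, the replicate block and without DMSO replicate 3. Ncoa4 was called in 0 of 14 (adjusted p 0.0527 to 0.354; 0.0455 unadjusted in edgeR's test). Tfrc was called in 1 of 14, with the replicate block. The members called higher or lower above kept their calls wherever they were tested, except Fth1 as given above. The pathway genes called numbered 15 to 21 higher and 5 to 8 lower with each library left out, and 9 higher and 1 lower where a log2 fold change beyond 1 was required as well. With that requirement, 8.28% of all tested genes were higher and 7.44% lower. The difference of the log2 Fth1 to Ftl1 ratio lay between 0.07 and 0.26 with each library left out. With each library left out, uncalled regulators near 0 changed sign, with log2 fold changes of -0.2975 to 0.0466 for Hif1a (above 0 without DMSO replicate 3), -0.1321 to 0.0367 for Keap1 (above 0 without the DMSO library numbered 1 or the SKI-II library numbered 2), -0.0337 to 0.327 for Mafk (below 0 without DMSO replicate 1) and -0.0812 to 0.0424 for Nfe2l2 (above 0 without the DMSO library numbered 3 or the SKI-II library numbered 2). The cause of these changes was not tested.

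It was not settled whether the replicate numbers of DMSO and SKI-II libraries pair them. Deviations from the group means correlated by 0.246, 0.00994 and 0.458 for numbers 1, 2 and 3. The last was the highest of all pairs. DMSO replicate 1 correlated better with SKI-II replicate 2 (0.296), and DMSO replicate 2 with SKI-II replicate 1 (0.0417). With the replicate number as a block, 8 members were higher and 1 lower, with Ftl1 (adjusted p = 0.0146) and Tfrc (adjusted p = 0.0136) added, Mmp9 (adjusted p = 0.0141), Nr1h2 (adjusted p = 0.0441) and Epas1 (adjusted p = 0.0443) were called as well, and 24 pathway genes were higher and 13 lower in edgeR's test. The block also raised the calls over all 12274 tested genes, from 2255 to 2765 higher and from 2413 to 2819 lower. At the depth of these libraries, the DMSO level of Lcn2 and its fold are limited by its 2 reads.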
